A study of Homo sapiens with 6 samples.

Results

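The genes described here serve protein folding and quality control in the endoplasmic reticulum, the compartment where secreted and membrane proteins are made. They are 31 genes chosen by symbol from a list of endoplasmic reticulum chaperones and genes of the unfolded protein response. All 31 were found among the 60564 genes of the count table, and all 31 passed the filter on low counts that left 18797 genes for testing. By role they are 15 chaperones and folding enzymes, 9 genes of endoplasmic reticulum-associated degradation, 4 stress sensors and transcription factors, and 3 genes of protein translocation and transport.

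RNA was sequenced from HEK293 cells, an established line of human embryonic kidney cells, in 3 samples with stable SFXN2 overexpression (titles OE_HA) and 3 wild-type samples (titles NC_HA). SFXN2 encodes sideroflexin 2, a carrier of the mitochondrial membrane, and the series title names it as a substrate of Parkin in apoptosis that follows mitochondrial dysfunction. The labels give the samples no drug or stress treatment, and do not say whether the overexpressing cells are 1 clone or a pool, which promoter drives SFXN2, or whether the wild-type cells carry an empty vector. Nothing in them tells whether the replicates were separate cultures. The p-values therefore reflect the spread among the 6 samples alone, and that spread may be technical.

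Unfolded proteins in the endoplasmic reticulum are sensed by the membrane proteins IRE1, PERK and ATF6, which are held in check by the chaperone BiP. IRE1 cuts a short block out of the XBP1 mRNA, ATF6 is cut in the Golgi, and both events release transcription factors that raise chaperone and degradation genes, while PERK slows translation and favours ATF4 and CHOP. The sensors are switched on at the protein level, so mRNA counts read the output of the response better than its first steps. In secretory cells these genes are needed for normal protein export, and they were also expressed in the HEK293 cells used here.

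Each library matched its label, with SFXN2 at 1523, 1909 and 1771 CPM with overexpression (replicates 1, 2 and 3, the order used for all values per library), against 36.6, 27.8 and 44.7 CPM in the wild-type replicates (CPM, the count relative to the library's TMM-scaled total; log2 fold change 5.58, adjusted p = 2.3e-06 by edgeR). Total counts ran between 40043248 and 59963713 with overexpression and between 32121527 and 41217867 in wild type, and the 3 largest totals were those of overexpression replicates 2 and 3 and of wild-type replicate 2. The same 3 libraries had the most genes with a count (28985, 29154 and 26127, against 24466 to 25384 in the other 3). All 8 markers expected in HEK293 cells, among them VIM, KRT8, NEFM and PAX2, were above 1 CPM on average. Of 7 blood and immune markers and 7 fibroblast markers, 1 each exceeded 1 CPM on average. The summed level was 1.21 to 4.53 CPM with overexpression against 1.34 to 2.01 CPM in wild type for blood and immune markers, and 12.5 to 21.6 against 15.1 to 21.3 CPM for fibroblast markers. Of 6 markers of secretory and plasma cells, which use this pathway heavily, only SDC1 exceeded 1 CPM, and their sums were 20.9 to 24.7 CPM with overexpression against 21.4 to 32.9 CPM in wild type. ALB of that list was low throughout, at 0.245 to 0.60 CPM with overexpression and 0.113 to 0.17 CPM in wild type, and its part in the results was not tested. The 31 genes together took 0.564%, 0.601% and 0.625% of counts in the overexpression libraries and 0.589%, 0.540% and 0.565% in the wild-type libraries, so the groups overlapped. In bulk RNA, fewer cells with a transcript and less of it per cell cannot be told apart.

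The response reads short elements in front of its target genes, and these are shown because some of the members hold one. The list names genes of this response, so its share of elements is not independent of how the members were chosen. The endoplasmic reticulum stress element (ERSE) has the letters CCAATNNNNNNNNNCCACG and is bound by NF-Y together with ATF6 or XBP1, and ERSE-II is ATTGG and CCACG with any 1 base between them. RefSeq windows of 250 bases before to 50 after the gene start (GRCh38.p14) were matched by symbol for 27 members and searched on both strands. PDIA3, DERL1, DERL3 and SEC24D had no window. An exact ERSE stood in 7 of the 27 windows (25.9%), and in 27 of 35116 windows of all genes (0.0769%). An exact ERSE-II stood in 3 of the 27 (11.1%), against 19 of all windows (0.0541%). The matches are given below on their own strand, 5′ to 3′, with the fixed letters in capitals. A match is a description of the letters only, and the search allows no mismatch.
HSPA5 ERSE: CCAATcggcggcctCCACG
HSP90B1 ERSE, upstream: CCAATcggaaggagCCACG
HSP90B1 ERSE, downstream: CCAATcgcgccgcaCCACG
CALR ERSE: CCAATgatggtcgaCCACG
CANX ERSE: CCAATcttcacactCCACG
CRELD2 ERSE: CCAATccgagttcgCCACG
XBP1 ERSE: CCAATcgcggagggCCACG
SERP1 ERSE: CCAATtcgctgtctCCACG
HERPUD1 ERSE-II: ATTGGgCCACG
HYOU1 ERSE-II, both copies: ATTGGaCCACG
SDF2L1 ERSE-II: ATTGGtCCACG

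**Figure D1:**
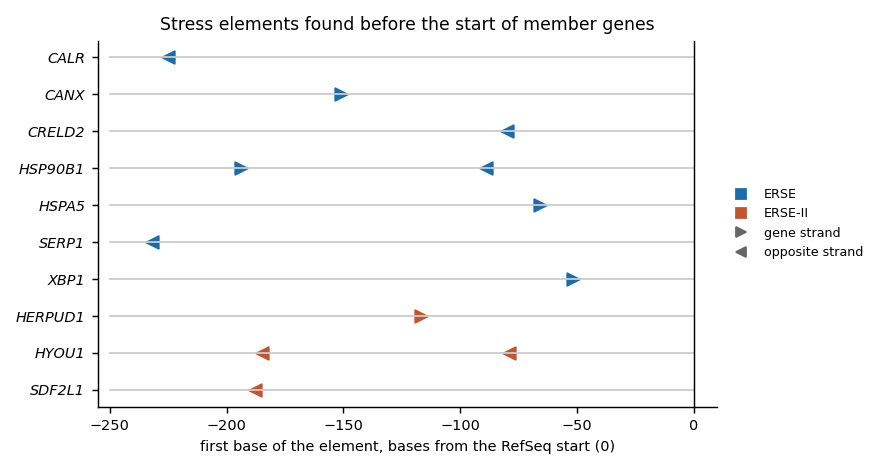
Position of each exact ERSE (blue) and ERSE-II (rust) in the 250 bases before the RefSeq start of the 10 member genes that hold one; the x axis is the distance in bases from the start to the first base of the element, and the arrow gives its strand relative to the gene. The 12 matches start between 232 and 52 bases before the gene start, and HSP90B1 and HYOU1 hold a pair each.

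Of the 10 genes with an element, 7 were chaperones or folding enzymes, 1 a degradation gene, 1 a transcription factor and 1 a translocation gene. The parts of the element were common on their own: CCAAT alone stood in 23 of the 27 windows (85.2%) and in 34.6% of all windows, and CCACG alone in 19 (70.4%) and in 38.1% of all. The letters TGACGTG, the core of the element that XBP1 binds, stood in 1 window (3.7%), that of HYOU1, where they overlap an ERSE-II, and in 1.97% of all. The 250 bases before the start are printed for HSPA5, XBP1 and HERPUD1, a chaperone, a transcription factor and a degradation gene whose levels are compared below, with the element in capitals.
HSPA5, chr9:125241344-125241593, minus strand, GRCh38.p14: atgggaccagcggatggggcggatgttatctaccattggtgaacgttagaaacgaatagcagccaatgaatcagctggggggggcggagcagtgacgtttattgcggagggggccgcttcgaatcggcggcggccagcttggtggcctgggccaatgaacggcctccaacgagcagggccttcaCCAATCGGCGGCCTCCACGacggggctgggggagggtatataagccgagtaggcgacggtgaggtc
XBP1, chr22:28800570-28800819, minus strand, GRCh38.p14: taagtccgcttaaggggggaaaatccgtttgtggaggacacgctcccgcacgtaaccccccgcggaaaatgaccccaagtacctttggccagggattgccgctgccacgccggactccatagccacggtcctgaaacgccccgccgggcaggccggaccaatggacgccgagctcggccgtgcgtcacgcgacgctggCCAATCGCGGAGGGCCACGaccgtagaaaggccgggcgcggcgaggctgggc
HERPUD1, chr16:56931892-56932141, plus strand, GRCh38.p14: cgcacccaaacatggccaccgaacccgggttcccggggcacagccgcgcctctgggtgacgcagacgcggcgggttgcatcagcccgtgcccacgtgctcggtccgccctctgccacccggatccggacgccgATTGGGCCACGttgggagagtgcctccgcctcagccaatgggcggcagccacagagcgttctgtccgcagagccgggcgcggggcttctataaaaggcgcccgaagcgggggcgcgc

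Levels per length overlapped between the roles, although the highest belonged to folding genes. Divided by the length of all annotated exons, the mean level over the 6 libraries ran between 1.66 CPM per kb for DERL3 and 283.5 CPM per kb for CALR, a span of 171-fold. The low end is uncertain, since DERL3 shares 77% of its exon bases with SMARCB1. The 8 genes above 50 CPM per kb were all chaperones or folding enzymes: CALR, HSP90B1, CANX, HSPA5, P4HB, PDIA4, PDIA6 and PDIA3. They made up 78.7% of the summed CPM of the 31 genes. A further 7 genes, led by HYOU1 and XBP1, stood between 10 and 50 CPM per kb, and 16 stood below 10. DNAJB9, DNAJC3, CRELD2 and SDF2L1, at 5.07 to 9.09 CPM per kb, lay below the sensor ATF6, and XBP1, at 28.4 CPM per kb, lay above them. ERN1, which encodes IRE1, was among the lowest at 1.96 ± 0.20 CPM per kb with overexpression and 1.92 ± 0.23 CPM per kb in wild type (SD, n = 3 each), while ATF6 stood at 9.89 ± 0.61 and 9.60 ± 0.97 CPM per kb. The order of neighbours is not firm: PDIA4, at 75.7 ± 5.15 CPM per kb with overexpression, PDIA6 at 74.5 ± 4.05 and PDIA3 at 71.0 ± 3.69 lay within their spread. No source used here names the annotation behind the counts, so the lengths are those of GENCODE 29.

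**Figure D2:**
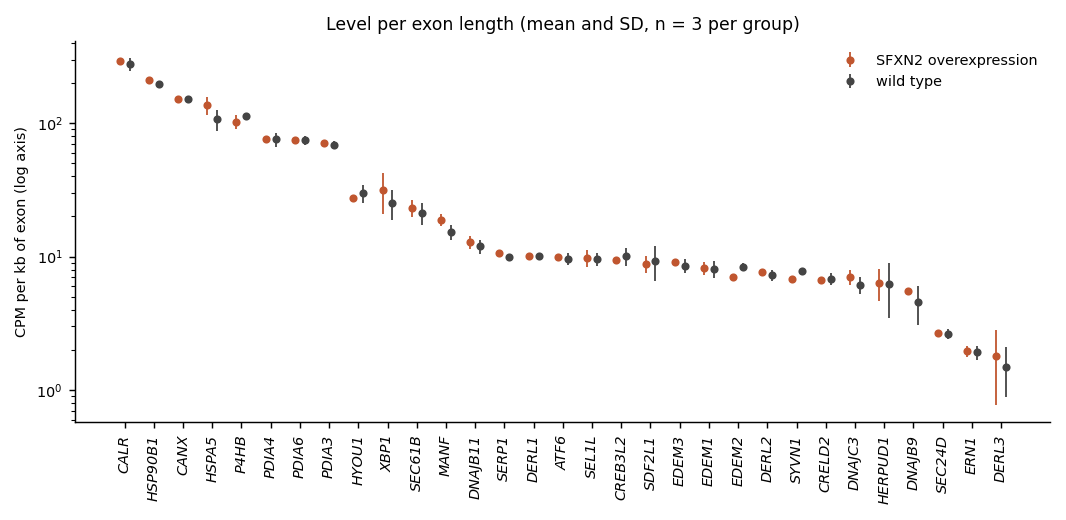
Level of each of the 31 genes in CPM per kb of exon (log axis), as mean and SD of 3 overexpression libraries (rust, left) and 3 wild-type libraries (dark, right), ordered by the mean over all 6. The 8 chaperones and folding enzymes on the left stand above 50 CPM per kb and are followed by a gap down to HYOU1 at 28.7 CPM per kb.

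None of the 31 genes differed between SFXN2 overexpression and wild type at the threshold, an adjusted p of 0.05 (0 genes in edgeR's quasi-likelihood test, in DESeq2 and in limma-voom). Among all tested genes 0.0106% passed in edgeR, 0.0353% in DESeq2 and 0.016% in limma-voom, so passing was rare for any gene. At an unadjusted p below 0.05 edgeR listed 1 member, MANF, which was higher with overexpression, where 4.76% of all tested genes did so (2.38% higher and 2.38% lower). DESeq2 listed 2 at that level, HSPA5 (unadjusted p = 0.026) and MANF (0.030), where 3.09% of its genes did so. The lowest adjusted p of any member in edgeR was 0.93.

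The log2 fold changes ran between -0.255 (EDEM2) and 0.35 (HSPA5). In all, 24 of the 31 were above 0, as were 51.2% of all tested genes, and their median was 0.039 beside 0.006 for all tested genes. By role the medians were 0.042 for chaperones and folding enzymes, 0.027 for degradation genes, 0.035 for sensors and transcription factors and 0.086 for translocation and transport. The median standard error of a single member was 0.12, and the medians themselves were not tested. The libraries bounded most of the genes closely: the 95% interval lay within -1 to 1 for 29 members, against 72.6% of all tested genes, and within -0.5 to 0.5 for 23 members, against 44.4%. Only XBP1 and DERL3 had intervals that reached beyond 1. The members were also more abundant, with a median level of 69.0 CPM against 15.3 CPM for all tested genes. The intervals were not compared with those of genes at like levels.

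**Figure D3:**
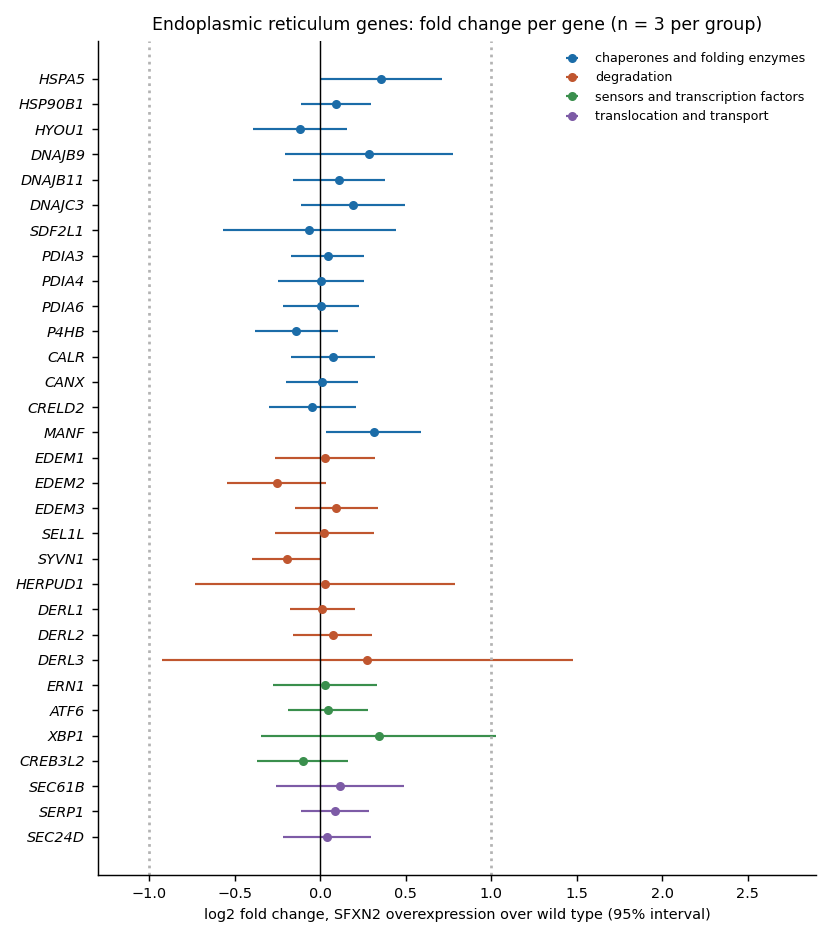
Log2 fold change of each gene, SFXN2 overexpression over wild type, with its 95% interval from edgeR's quasi-likelihood fit (3 libraries per group), coloured by role; dotted lines mark a log2 change of 1 in either direction. All points lie between -0.26 and 0.35, the intervals of XBP1 and DERL3 cross the dotted line at 1, and the interval of MANF is the one that lies wholly above 0.

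The 3 overexpression libraries lay wholly on 1 side of the 3 wild-type libraries for 3 members, SERP1 above and EDEM2 and SYVN1 below, where 9.16% of all tested genes were separated in this way (4.91% above and 4.25% below, and 9.03% of genes with a mean of 10 CPM or more). Fewer libraries separate more genes. Without overexpression replicate 1, 2 or 3 there were 11, 4 and 3 such members (31%, 14.1% and 13% of all tested genes). Without wild-type replicate 1, 2 or 3 there were 9, 6 and 3 (24.6%, 20.2% and 16%), and without overexpression replicates 2 and 3 there were 9 (41.5%). Taking the libraries by replicate number, SERP1 was higher with overexpression in all 3 pairs (15.8% of all tested genes), and P4HB, EDEM2, SYVN1 and CREB3L2 were lower in all 3 (14.4%). With the replicate number as a block edgeR again called 0 members (0.00532% of all tested genes passed), and the unadjusted p was below 0.05 for 2 members, MANF and SYVN1, where 8.32% of all genes reached that level (4.05% higher and 4.26% lower).

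HSPA5 encodes BiP, the Hsp70 chaperone of the endoplasmic reticulum and the classic readout of its stress (chromosome 9, 125234853 to 125241330, GRCh38, minus strand). It stood at 439.7, 553 and 605 CPM with overexpression, against 482, 332 and 437 CPM in wild type. Replicates 2 and 3 with overexpression were the highest of all libraries, wild-type replicate 2 the lowest, and overexpression replicate 1 lay inside the wild-type range. The fitted log2 fold change of 0.35 had an SE of 0.16 and an interval of -0.002 to 0.71. By edgeR the unadjusted p was 0.051 and the adjusted p was 0.93. Leaving out 1 library at a time, the log2 fold change ran between 0.21 (without wild-type replicate 2) and 0.47 (without overexpression replicate 1). Without overexpression replicates 2 and 3 it was 0.077, and within the numbered pairs it was -0.13, 0.74 and 0.47.

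HYOU1, DNAJB11 and DNAJC3, partners of BiP, varied less within groups than HSPA5 did, with pooled SDs on the log2 scale of 0.175, 0.165 and 0.193 beside 0.259, whereas the partners DNAJB9 (0.357) and SDF2L1 (0.332) varied more. HYOU1, a large Hsp70 relative that recharges BiP with ATP, stood at 215, 199.5 and 221 CPM with overexpression and at 254, 189 and 247 CPM in wild type. The groups overlapped, and wild-type replicate 2 was again the lowest library. DNAJB11 and DNAJC3 are J-domain cochaperones that hand substrates to BiP. DNAJB11 stood at 65.0, 75.6 and 80.6 CPM with overexpression, against 73.6, 59.4 and 72.1 CPM in wild type, and DNAJC3 at 33.9, 43.0 and 40.9 CPM against 39.5, 34.0 and 29.8 CPM. Both had their highest values in overexpression replicates 2 and 3, as HSPA5 did, with log2 fold changes of 0.11 and 0.19 and adjusted p of 0.95 and 0.93 by edgeR. Without those 2 libraries the log2 fold changes were -0.071 and -0.022.

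DNAJB9, a J-domain protein that also restrains IRE1, had the widest within-group spread on the log2 scale among the J-domain cochaperones. It stood at 15.3, 16.3 and 15.9 CPM with overexpression and at 13.5, 16.9 and 8.51 CPM in wild type, and wild-type replicate 3 was the lowest library. Its log2 fold change was 0.29 (SE 0.22, adjusted p = 0.93 by edgeR), and 0.056 without that library. SDF2L1, a small partner of DNAJB11 in the BiP cycle, stood at 10.6, 8.13 and 10.6 CPM with overexpression and at 9.37, 7.70 and 13.6 CPM in wild type, with a log2 fold change of -0.065. HSP90B1, the Hsp90 chaperone GRP94, was steady at 959, 997 and 993 CPM with overexpression, against 959.9, 939.6 and 871 CPM in wild type. Its log2 fold change was 0.090 with an SE of 0.092 (adjusted p = 0.95 by edgeR).

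The lectin chaperones and the disulfide isomerases PDIA3, PDIA4 and PDIA6 were nearly level. CALR, the soluble lectin calreticulin, stood at 781, 752 and 835 CPM with overexpression and at 836, 664.5 and 746.5 CPM in wild type. CANX, its membrane-bound counterpart calnexin, averaged 953 ± 40.8 CPM with overexpression and 946.5 ± 47.3 CPM in wild type (SD, n = 3 each). Their log2 fold changes were 0.076 and 0.010, with 95% intervals of -0.17 to 0.32 and -0.20 to 0.22. PDIA3, the isomerase that works with both lectins, averaged 301 ± 15.6 and 292 ± 18.1 CPM, PDIA4 248 ± 16.9 and 247 ± 28.7 CPM, and PDIA6 306 ± 16.6 and 304.5 ± 24.95 CPM with overexpression and in wild type (SD, n = 3 each). The 3 log2 fold changes were 0.042, 0.004 and 0.005, and the widest of their intervals, that of PDIA4, was -0.25 to 0.25. PDIA3 has a processed pseudogene, PDIA3P1, with a mean count of 427 beside 13017 for PDIA3, and how reads were split between them is uncertain.

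P4HB, the founding protein disulfide isomerase and a subunit of the collagen prolyl hydroxylase, had the lowest log2 fold change of the member isomerases, a difference that was not tested. It stood at 615, 490.1 and 532 CPM with overexpression, against 630.0, 568 and 605 CPM in wild type. Overexpression replicates 2 and 3 were the lowest libraries, and replicate 1 lay inside the wild-type range. The log2 fold change was -0.14 (SE 0.11, adjusted p = 0.93 by edgeR).

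MANF and CRELD2 are small stress-induced proteins that stay in the endoplasmic reticulum or are secreted, and MANF binds BiP. MANF (chromosome 3, 51385047 to 51389397) stood at 40.5, 44.7 and 50.1 CPM with overexpression, against 41.4, 32.5 and 35.2 CPM in wild type. The groups overlapped through 1 library on each side, since wild-type replicate 1 lay just above overexpression replicate 1. Its log2 fold change of 0.31 had an SE of 0.125 and an interval of 0.034 to 0.59, with an unadjusted p of 0.0315 and an adjusted p of 0.93 by edgeR. Over the fit and its 16 alternatives the log2 fold change lay between 0.16 and 0.41 and the adjusted p between 0.34 and 1. CRELD2 stood at 33.1, 33.0 and 36.8 CPM with overexpression and at 35.7, 31.4 and 39.0 CPM in wild type, with a log2 fold change of -0.046.

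Among the degradation genes the ubiquitin ligase SYVN1 and the mannosidase-like EDEM2 were the members with wholly separate groups. SYVN1 encodes HRD1, which marks misfolded proteins for the proteasome (chromosome 11, 65121780 to 65134533). It stood at 37.1, 38.2 and 37.1 CPM with overexpression and at 43.0, 42.7 and 43.0 CPM in wild type. The pooled SD within groups was 0.018 on the log2 scale, and all overexpression libraries lay below all wild-type libraries. Its log2 fold change of -0.20 had an SE of 0.090 and an interval of -0.40 to 0.006, with an unadjusted p of 0.056 and an adjusted p of 0.93 by edgeR, which borrows the spread of other genes and does not use the observed SD alone. Blocked by replicate number, edgeR gave an unadjusted p of 0.0467 and an adjusted p of 0.60. Part of SYVN1's exons also belongs to FAU (7.24%) and MRPL49 (6.48%), neighbours counted at 4775 and 2540 reads on average beside 1740.3 for SYVN1, so reads there are uncertain.

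EDEM2, which trims mannose from misfolded glycoproteins, stood at 13.1, 13.2 and 14.1 CPM with overexpression, against 15.6, 15.2 and 17.5 CPM in wild type. All 3 overexpression libraries were lower than all 3 wild-type libraries. The log2 fold change was -0.255 (SE 0.13, adjusted p = 0.93 by edgeR), and it ran between -0.30 and -0.19 over the alternatives. Its relatives EDEM1 and EDEM3 act on the same kind of substrate. EDEM1 stood at 48.1, 58.8 and 59.4 CPM with overexpression and at 47.9, 63.0 and 52.3 CPM in wild type, and EDEM3 at 68.6, 76.1 and 68.9 CPM against 75.2, 60.4 and 64.6 CPM, with overlapping groups and log2 fold changes of 0.027 and 0.093.

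SEL1L, the adaptor that brings substrates to SYVN1, stood at 78.4, 102.6 and 100.1 CPM with overexpression, against 90.2, 103 and 83.0 CPM in wild type. HERPUD1, a ubiquitin-like membrane protein of the same complex, stood at 23.6, 40.8 and 33.9 CPM with overexpression, against 24.3, 48.3 and 23.6 CPM in wild type. In both genes 1 wild-type library, replicate 2, was the highest of all and overexpression replicate 1 the lowest. Their log2 fold changes were 0.023 (SE 0.13) and 0.029 (SE 0.32).

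The derlins are membrane proteins that help misfolded proteins out of the endoplasmic reticulum, and their values were spread in different ways. DERL1 was the steadiest of all 31 genes, at 72.4, 70.6 and 72.5 CPM with overexpression and 70.7, 71.7 and 71.6 CPM in wild type (log2 fold change 0.010, 95% interval -0.18 to 0.20). DERL2 averaged 48.8 ± 1.69 CPM with overexpression and 46.5 ± 4.55 CPM in wild type (SD, n = 3 each). DERL3, the stress-induced member, was low and variable at 2.37, 8.71 and 9.52 CPM with overexpression and 5.89, 7.92 and 3.28 CPM in wild type. Its log2 fold change of 0.27 had an SE of 0.52 and an interval of -0.93 to 1.48. DERL3 shares 77% of its annotated exon bases with SMARCB1 on the opposite strand, which had a mean count of 7926 beside 297 for DERL3. The kit does not mark strand, so a read within the shared bases could come from either gene. No source used here names the counting tool, so how such reads were assigned is uncertain.

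**Figure D4:**
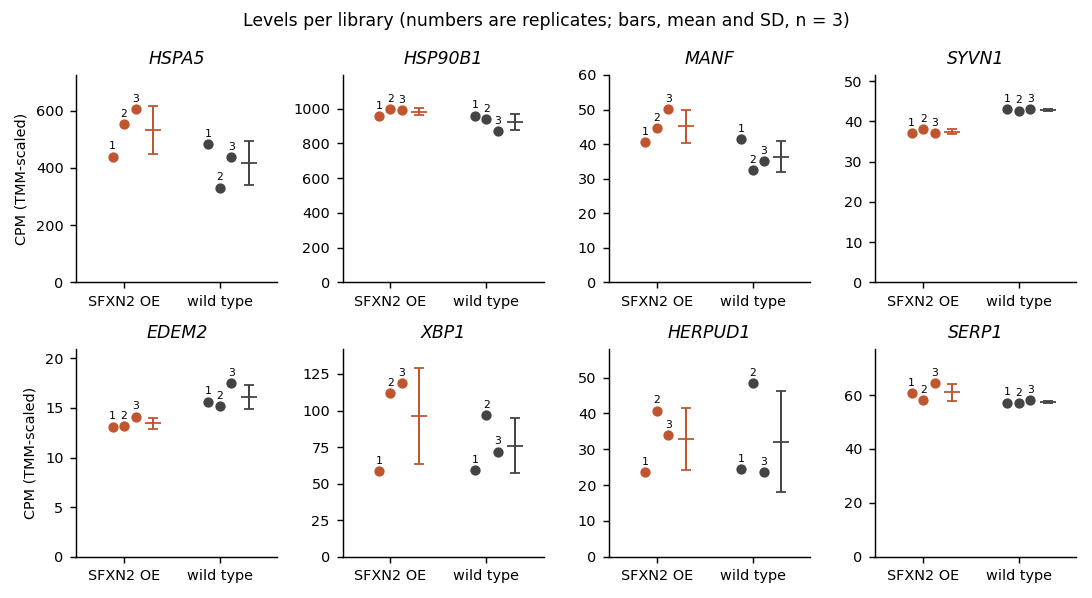
Levels in CPM of 8 genes in each library, SFXN2 overexpression on the left and wild type on the right of each panel; numbers are replicates and bars give the mean and SD of 3 libraries. SYVN1, EDEM2 and SERP1 have separate groups that differ by little, whereas XBP1 and HERPUD1 spread widely inside each group.

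Of the sensors, ERN1 and ATF6 stood at like levels in both groups. ERN1 stood at 19.0, 21.5 and 23.3 CPM with overexpression and at 18.5, 23.5 and 20.6 CPM in wild type, with a log2 fold change of 0.027 (95% interval -0.28 to 0.33). ATF6, the membrane-bound precursor of a transcription factor, stood at 72.7, 81.9 and 79.6 CPM with overexpression, against 71.9, 84.5 and 70.7 CPM in wild type, with a log2 fold change of 0.044 (95% interval -0.19 to 0.28). CREB3L2, a membrane-bound transcription factor related to ATF6, stood at 82.4, 86.7 and 77.9 CPM with overexpression and at 82.8, 103.7 and 78.9 CPM in wild type, where replicate 2 was the highest library (log2 fold change -0.10).

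XBP1, the transcription factor that IRE1 activates (chromosome 22, 28794555 to 28800597, minus strand), had the widest spread of the 4. It stood at 58.4, 112 and 119 CPM with overexpression, against 59.4, 96.7 and 71.9 CPM in wild type. The groups overlapped, with overexpression replicates 2 and 3 highest, wild-type replicate 2 next, and overexpression replicate 1 lowest. The fitted log2 fold change of 0.34 had an SE of 0.29, an interval of -0.35 to 1.03 and an adjusted p of 0.94 by edgeR. It was 0.044 with the depth class of the libraries (the 3 largest totals against the 3 others) as a term, and -0.38 without overexpression replicates 2 and 3.

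The active form of XBP1 depends on removal of a 26-base block from the mRNA, which is shown because counts per gene do not see it. A longer and a shorter transcript of GENCODE 29 (chromosome 22, minus strand) are given around that block, in capitals, with 20 bases on each side, and the letters allow 7 equivalent placements of the block.
XBP1 longer transcript: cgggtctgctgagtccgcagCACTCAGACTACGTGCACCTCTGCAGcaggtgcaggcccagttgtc
XBP1 shorter transcript: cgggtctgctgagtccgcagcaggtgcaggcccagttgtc

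The loss of 26 bases shifts the reading frame. The block is 0.86% of the annotated exon bases of XBP1, and all 7 annotated transcripts, 4 of them with the block, fall under 1 gene identifier, so the table of counts per gene holds both forms as 1 number.

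The 3 genes of translocation and transport had log2 fold changes above 0, and none passed. SEC61B, a subunit of the channel through which new proteins enter, stood at 30.8, 22.99 and 28.6 CPM with overexpression and at 27.7, 19.7 and 28.7 CPM in wild type, where replicate 2 was the lowest in each group. SERP1, a small protein bound to that channel, stood at 60.7, 58.04 and 64.3 CPM with overexpression, against 57.2, 57.1 and 58.04 CPM in wild type. Its groups were separate by a small margin, between overexpression replicate 2 and wild-type replicate 3, and the log2 fold change was 0.086 (SE 0.089, adjusted p = 0.95 by edgeR). SEC24D, a cargo adaptor of the COPII coat, averaged 26.8 ± 1.42 CPM with overexpression and 26.1 ± 2.29 CPM in wild type (SD, n = 3 each).

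Differences between libraries of 1 group were larger for several members than the difference between the groups. The pooled SD within groups on the log2 scale ran between 0.017 (DERL1) and 0.92 (DERL3), with a median of 0.14 over members and 0.21 over all tested genes. It exceeded 0.2 for 7 members. HERPUD1 (0.50), XBP1 (0.47), DNAJB9 (0.36), SDF2L1 (0.33), SEC61B (0.26) and HSPA5 (0.26) followed DERL3. Several of these went with a split of the libraries by total count. The split is narrow, because wild-type replicate 2, the third deepest, had 41217867 counts and overexpression replicate 1, the next, had 40043248. Whether total count orders these values was not tested. The 3 deepest libraries lay above the 3 others for 8 members (11.1% of all tested genes) and below them for 2, PDIA4 and P4HB (9.54%). The 8 were XBP1, ATF6 and ERN1 among 4 sensors and transcription factors, EDEM1, SEL1L, HERPUD1 and DERL3 among 9 degradation genes, and DNAJB9 alone among 15 chaperones and folding enzymes. On the log2 scale over the wild-type mean, the median of those 15 was lowest in wild-type replicate 2 (-0.154). It ran between -0.041 and 0.113 in the other libraries.

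Overexpression replicates 2 and 3, the 2 deepest libraries, lay above the other 4 for 7 members (14.4% of all tested genes): HSPA5, HSP90B1, DNAJB11, DNAJC3 and MANF, in which wild-type replicate 2 was not the highest wild-type library, and XBP1 and DERL3, which are also among the 8. Depth and group cannot be fully told apart here, because 2 of the 3 deepest libraries were overexpression libraries. With depth class as a term, edgeR called 0 members and MANF alone had an unadjusted p below 0.05 (0.0485, where 5.55% of all tested genes reached that level), with a log2 fold change of 0.31. HSPA5 had a log2 fold change of 0.37 in that fit and HERPUD1 one of -0.20. The part of depth in these values was not tested further.

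**Figure D5:**
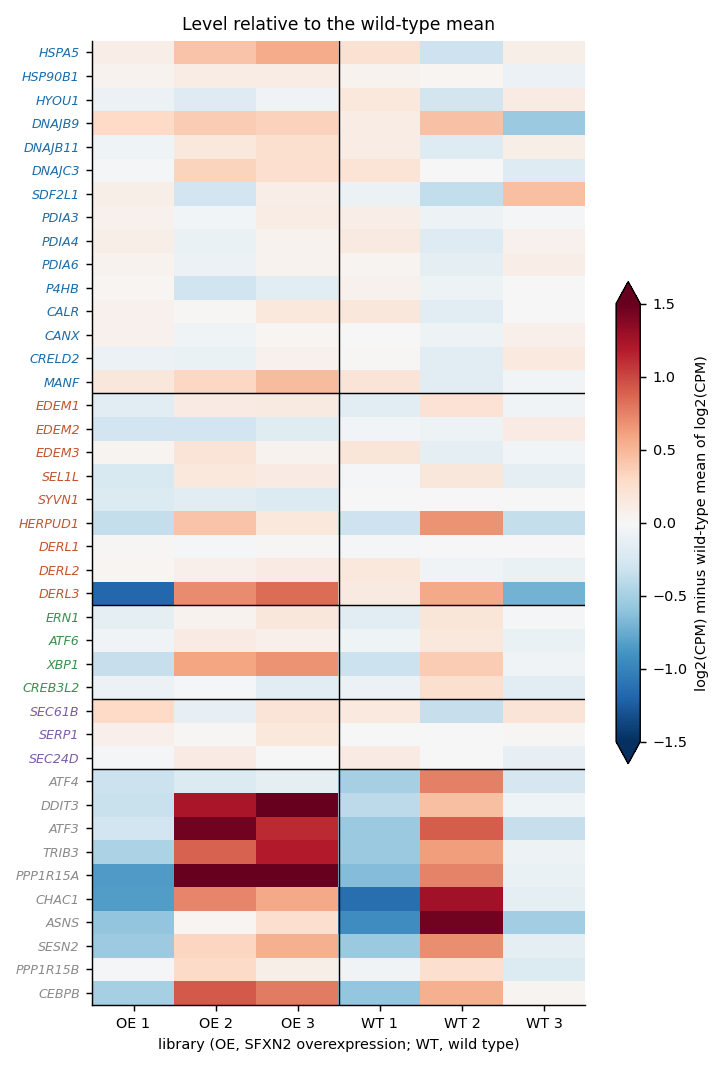
Level of the 31 genes and of 10 PERK-branch genes (grey labels) in each library as log2 CPM minus the wild-type mean of log2 CPM, overexpression libraries on the left and wild type on the right; label colours give the role and the colour scale saturates at 1.5. Overexpression replicates 2 and 3 and wild-type replicate 2 have higher values than the 3 other libraries for XBP1, HERPUD1, DERL3 and the PERK-branch genes, and the isomerases and lectin chaperones stay near white in all 6 libraries.

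The genes listed under the PERK branch showed the same library pattern most widely. The activity of PERK itself was not measured, and what raised these genes was not tested. All 10 listed genes of that branch were higher in the 3 deepest libraries than in the 3 others, where 11.1% of all tested genes were, and 0 passed between the groups in edgeR and in DESeq2. DDIT3, which encodes CHOP, stood at 8.57, 25.1 and 31.5 CPM with overexpression, against 8.198, 14.8 and 10.3 CPM in wild type. PPP1R15A, the phosphatase subunit that reverses PERK signalling, stood at 26.1, 159.5 and 142 CPM with overexpression, against 29.8, 78.7 and 43.9 CPM in wild type. Their log2 fold changes were 0.97 (SE 0.475) and 1.105 (SE 0.80), both with an adjusted p of 0.93 by edgeR, and without overexpression replicates 2 and 3 they were -0.37 and -0.96. Of the 10 genes 7 had a log2 fold change above 0 and 3 had one below 0. Those 3 were ATF4, the branch's main transcription factor (-0.33), ASNS, which makes asparagine (-0.46), and CHAC1, which degrades glutathione (-0.027). Wild-type replicate 2 was the highest library for each of them, with ASNS at 100.4, 155 and 181 CPM with overexpression, against 79.7, 414 and 106 CPM in wild type.

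The other genes of the pathway gave no call in either direction. Of 89 such genes 87 were tested, and 0 passed in edgeR, in DESeq2 or with the replicate block, with a median log2 fold change of 0.005. At an unadjusted p below 0.05 edgeR listed 1 of the 87, where 4.76% of all tested genes were listed, and 6 with the replicate block (4 higher and 2 lower), where 8.32% were. The 6 were DDIT3, ATF3, EIF2AK3 and SRPRB, higher, and ATF6B and GANAB, lower, each with a blocked adjusted p of 0.60 by edgeR. The 1 without the block was ATF6B, the close relative of ATF6, at 71.2, 65.0 and 66.8 CPM with overexpression and 73.9, 94.8 and 88.8 CPM in wild type. Its groups were separate, with a log2 fold change of -0.34 (SE 0.11, adjusted p = 0.93 by edgeR). EIF2AK3, which encodes PERK, lay the other way at 35.4, 38.3 and 37.9 CPM with overexpression, against 35.3, 31.1 and 26.1 CPM in wild type, with a log2 fold change of 0.27 (SE 0.125, adjusted p = 0.93 by edgeR).

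By group, the medians were -0.014 for 21 other folding and glycan-trimming genes, 0.011 for 18 other degradation genes, -0.063 for 11 tested sensors, proteases and transcription factors, 0.28 for 10 PERK-branch genes, 0.032 for 16 other genes of the translocon and signal peptidase and 0.004 for 11 other COPII genes. The smallest unadjusted p values among folding genes belonged to GANAB, a glucosidase subunit that trims glycans for calnexin and calreticulin (log2 fold change -0.21), and ERP44, which retains proteins through thiol bonds (0.18). Among degradation genes the lectin OS9 had a log2 fold change of -0.16. Among translocon genes they belonged to SRPRB, a subunit of the signal recognition particle receptor (0.29), and SEC62 (0.145), and among COPII genes to the GTPases SAR1B (0.185) and SAR1A (0.14). All 7 had an adjusted p of 0.93 by edgeR. Groups were separate for 5 of the 87 genes, EIF2AK3, SRPRB and FAF2 above and ATF6B and GANAB below, where 9.16% of all tested genes were separated. The levels were 518, 440.0 and 462 CPM with overexpression against 574, 524 and 541 CPM in wild type for GANAB, and 55.5, 52.8 and 66.8 CPM against 51.4, 40.3 and 51.9 CPM for SRPRB.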

How the data were processed

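Total RNA of 6 HEK293 samples went through rRNA removal and a TruSeq v2 library kit, which does not mark strand, per the labels' protocols. Trim Galore 0.4.4 and build hg38 are named in the submitters' processing notes; no source used here names the aligner, counting tool or annotation. The authors deposited raw counts per Ensembl gene, per the file headers and the whole-number values, and a log2 table that equals the log2 of count over a constant per sample, plus 1.

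Counts were tested with edgeR 4.0.16 in R 4.3.3 (TMM, filterByExpr with a minimum count of 10, robust quasi-likelihood F-test, two-sided, Benjamini-Hochberg over 18797 genes, threshold 0.05), which was tested on simulated data. A standard error is the log2 fold change over the square root of F. Alternatives used DESeq2 1.42.0, limma 3.58.1 and other scalings, filters and sample sets; leaving out both overexpression replicates 2 and 3, and the depth class, were chosen after the data were seen. Members and lists were chosen with earlier results of these data known. All members are named; values per library were given to those of at least 10 CPM among the 12 largest fold changes and to lead members of each role, and other lists name the 2 smallest p, of which 1 gene is not reported here. DERL3, DERL1, SERP1, SDF2L1, CRELD2, EDEM3, ALB, ATF3, ATF4, ASNS, CHAC1, FAF2 and the genes of the library pattern were taken up after their values were seen. Gene positions and exon lengths came from GENCODE 29 (GRCh38) and matched 58457 genes by Ensembl ID. Replicate numbers were taken as pairs because deviations from the group means correlated at 0.24, 0.33 and 0.19 within numbers 1, 2 and 3. That pairing was read from these same counts, so the blocked p-values are not independent of it. Each pair of libraries differed beyond counting noise, with a lowest chi-square over its degrees of freedom of 13.7, for replicate 1 of both groups. Pairs with wild-type replicate 2 ran between 48.1 and 82.6, and pairs without it between 13.7 and 40.2. All libraries were kept. Member counts ran between 92 and 60691 per library. No protein table was used here.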

Additional observations from a re-analysis of the deposited data

How the results depend on the processing

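In edgeR, DESeq2, limma-voom and every other alternative run, 0 members and 0 of the other pathway genes passed the threshold. The number of all genes past it was 2, 12 with DESeq2, 1 with the replicate block, 1 with depth class as a term and 1 to 3 leaving out a library. The count of members at an unadjusted p below 0.05 was 1, and 2 with a filter of 1 CPM, with DESeq2, with library size alone, with no low-count filter and with the replicate block; it was 0 to 3 leaving out a library (3 without overexpression replicate 1, and 0 without overexpression replicate 2 or 3 or wild-type replicate 3). Members with separate groups numbered 3, 3 to 11 leaving out a library, and 9 without overexpression replicates 2 and 3. Leaving out a library moved the median of members to between -0.003 and 0.088, and without overexpression replicates 2 and 3 the median of degradation genes was -0.21. Of 44 named genes 22 changed sign in at least 1 setting, 58 of 704 values in all, none of them past the threshold, and the cause was not tested. Without overexpression replicates 2 and 3 the sign changed for DNAJB11 (-0.071), DNAJC3 (-0.022), SDF2L1 (0.048), P4HB (0.034), EDEM1 (-0.176), SEL1L (-0.234), HERPUD1 (-0.445), DERL3 (-1.265), ERN1 (-0.137), ATF6 (-0.058), XBP1 (-0.379), SEC24D (-0.016), DDIT3 (-0.373) and PPP1R15A (-0.961). With depth class as a term it changed for SDF2L1 (0.081), EDEM1 (-0.076), SEL1L (-0.086), HERPUD1 (-0.202), DERL3 (-0.341), ERN1 (-0.057) and ATF6 (-0.019), and with median-of-ratios scaling for PDIA4 (-0.001). Leaving out 1 library at a time, the log2 fold change crossed 0 for SDF2L1 (-0.235 to 0.194), PDIA4 (-0.089 to 0.063), PDIA6 (-0.061 to 0.053), CALR (-0.005 to 0.154), CANX (-0.027 to 0.046), CRELD2 (-0.126 to 0.028), EDEM1 (-0.064 to 0.146), SEL1L (-0.052 to 0.133), HERPUD1 (-0.163 to 0.450), DERL1 (-0.005 to 0.018), DERL3 (-0.044 to 0.674), ERN1 (-0.060 to 0.120), ATF6 (-0.004 to 0.129), CREB3L2 (-0.180 to 0.025), SEC61B (-0.040 to 0.223) and SEC24D (-0.021 to 0.098). Among members the SE was highest for DERL3 (0.517), HERPUD1 (0.322) and XBP1 (0.291).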
